A study of Tetradesmus deserticola with 10 samples.

Results

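A set of 36 genes of a desert green alga was almost lost from the RNA of dry cells and was present again, at a lower level than before, 1 h after rewetting. The alga is Tetradesmus deserticola, strain Sni-2, which the submitters call Acutodesmus deserticola, and the set holds 36 of 20783 assembled genes. RNA was sequenced in 5 stages with 2 libraries per stage, all from cultures grown for 6 weeks and spotted as 40 µL drops. Hydrated drops were taken at once, Early drops after 2.5 h of drying at a volume loss of 25%, and Late drops after 7.5 h at a volume loss of 60%. Dry drops were flattened spots left in the chamber for 11 h more, to about 24 h after the start, and Rehydrated drops were taken 1 h after water was returned. All groups are the same strain without a genetic change, and the libraries include no drops held wet over these hours, so drying, rewetting and elapsed time cannot be told apart.

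The 36 genes were chosen by their measured values, so the pattern that defines them is described below and not tested. A member had a sum of at least 300 counts over the 10 libraries. In the authors' length-corrected signal, scaled between libraries by TMM (trimmed mean of M-values), its higher Dry value was at most 0.125 times the lowest of its 6 Hydrated, Early and Late values. Its Late mean lay above 0.5 and below 2 times its Hydrated mean, and its Rehydrated mean lay from 0.25 to 2 times its Hydrated mean. Of the 20783 genes, 2904 had enough counts, 151 of these met the condition on Dry, and 121 also met the condition on Late. Of these 121 genes, 36 lay in the rewetted range, 84 lay below it and 1 lay above it.

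Green algae of desert soil crusts survive the loss of nearly all their cell water and take up metabolism again when wetted. A cell without free water can neither transcribe nor translate normally, so the messenger RNA found in a dry cell is what was made before drying was complete and was not degraded since. RNA made after rewetting adds to this pool. No gene name, function or sequence stands beside the identifiers in the files, and no annotation was used here, so each gene is given by its assembly identifier alone.

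Before drying, the 36 genes were of middling abundance among the genes with enough counts. Their Hydrated mean signal ran from 9.08 to 229, with a median of 33.4 against 37.4 over the 2904 genes. The set as a whole took 0.301% ± 0.019 of all counts in Hydrated (SD, n = 2), 0.263% ± 0.0171 in Early and 0.204% ± 0.0368 in Late. In Dry this share was 0.00565% ± 9.05e-05, and in Rehydrated it was 0.122% ± 0.00693. The 2 Dry libraries thus lay below all 8 others, and the 2 Rehydrated libraries lay between them and the 6 libraries taken before dryness. Because the genes were chosen for this order, the shares describe its size and support nothing further. In bulk RNA, fewer cells that contribute a transcript and less of it per cell cannot be told apart, and all values are relative to the RNA of their own library.

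Libraries held between 644705 and 1917825 counts, lowest in the 2 Rehydrated libraries. Per library, the counts of the median member were 124 and 85 in Hydrated, 1 and 1.5 in Dry, and 17 and 21 in Rehydrated. Nothing in the labels tells whether a stage's 2 libraries are from different cultures, so p-values measure only how far these libraries differ, possibly for technical reasons. With 2 libraries against 2, the smallest p of an exact permutation test is 0.333, so none was made of single values.

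**Figure D1:**
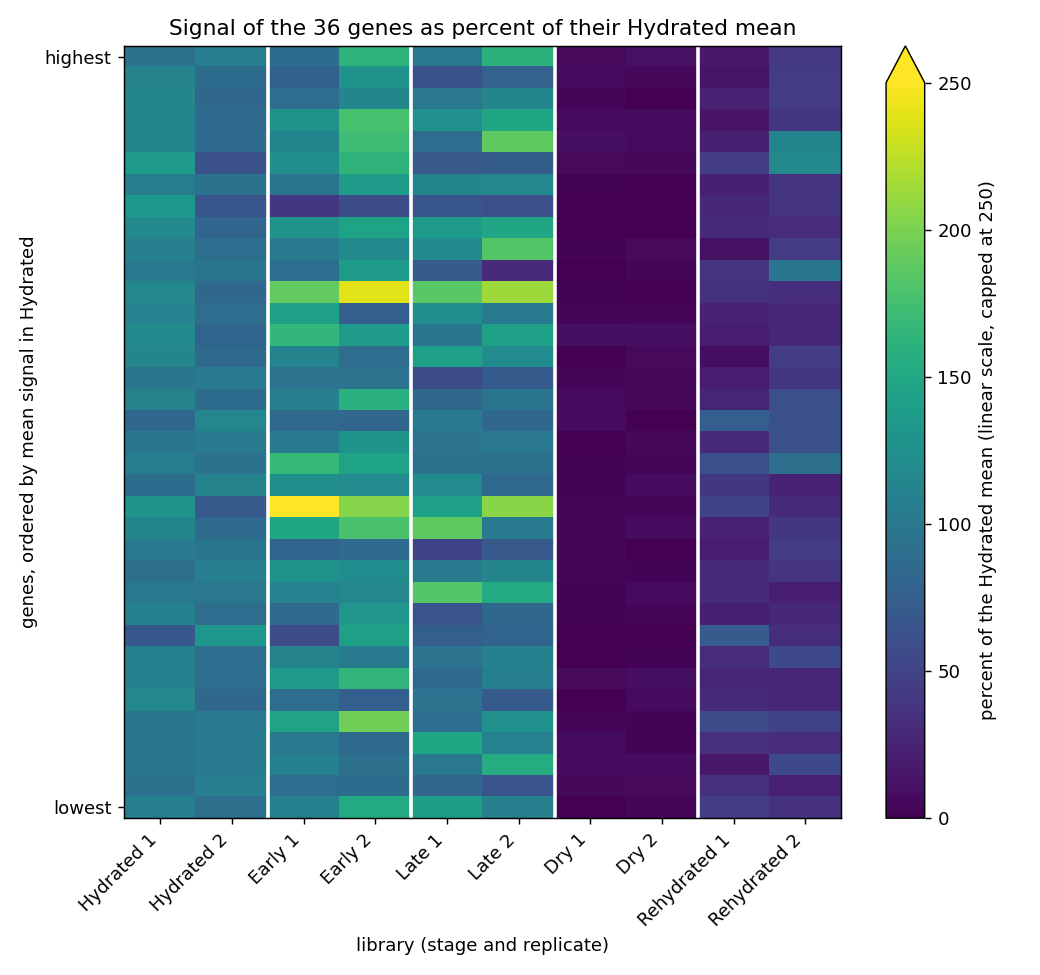
Deposited signal of the 36 genes in the 10 libraries, as percent of each gene's mean in the 2 Hydrated libraries; rows are genes ordered by that mean, columns are libraries, and the colour scale is linear, with its cap shown at the colour bar. The 2 Dry columns are dark throughout, with stage means of at most 9.77%, and the Rehydrated columns are lower than the 6 columns before dryness in most rows, with both below both Hydrated columns in 32 of 36.

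The gene with the highest level before drying was TRINITY_DN176065_c5_g1. Its signal was 213.5 and 245.0 in the Hydrated libraries, 203 and 369 in Early, 232.5 and 367 in Late, 13.6 and 24.9 in Dry, and 39.1 and 97.9 in Rehydrated. Its Dry values were the lowest, and both Rehydrated values lay above both Dry values and below all 6 values before dryness. On 860 counts in Hydrated and 126 in Rehydrated, the rewetted level was 29.9% of the Hydrated level. The second most abundant gene was TRINITY_DN176912_c1_g2. Its signal was 140.6 and 111 in Hydrated, 98.2 and 162 in Early, 79.1 and 98.5 in Late, 9.29 and 7.06 in Dry, and 18.1 and 54.4 in Rehydrated. The Rehydrated values again stood between the Dry values and the others, but Rehydrated replicate 2 was well above replicate 1.

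In Dry, most members were close to the limit of detection. The Dry mean had a median of 3.74% of the Hydrated mean, and the highest was 9.77%. Over both Dry libraries together the counts of a member ran from 0 to 27 with a median of 3, and 23 of the 36 genes had at most 3 counts there. In each Dry library 8 members had 0 counts. TRINITY_DN179425_c2_g1 and TRINITY_DN175341_c2_g1, named here after their values were seen, had 0 counts in both. Their counts were scaled by the median counts per signal of each library and bounded with 3 counts per Dry library as the floor. For TRINITY_DN179425_c2_g1 these scaled counts were at least 7.92-fold higher in Hydrated and at least 2.33-fold higher in Rehydrated than in Dry. For TRINITY_DN175341_c2_g1 the same bounds were 9.52-fold and 3.85-fold. With both genes set at that floor the median Dry level of the set was 4.22% of Hydrated. How far below the threshold most members lay could therefore not be resolved at this depth.

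The fold by which a member was lower in Dry depends on the scaling of the libraries. The median log2 ratio of Dry to Hydrated over the 36 genes was -4.74 in the deposited signal, beside -0.83 over the tested genes with signal in both stages. Relative to library totals it was -5.91, beside -2.2 over those genes. With TMM factors computed from the counts it was -4.15, and without Dry replicate 1 it was -4.35 in the deposited signal.

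All 36 members had both Rehydrated values above both Dry values, beside 39.9% of the 9856 genes tested; the rule nearly fixes this for its members. No member had a Rehydrated mean as high as its Hydrated mean. The ratio of Rehydrated to Hydrated ran from 0.25 to 0.82 with a median of 0.33. It lay below 0.3 in 12 genes, from 0.3 to 0.4 in 12, from 0.4 to 0.5 in 5, from 0.5 to 0.75 in 5, and above that in 2. Both Hydrated libraries lay above both Rehydrated libraries in 32 of the 36 genes, beside 40.2% of genes tested, a contrast that the rule also used. In the 34 members with counts in Dry, the lowest ratio of Rehydrated to Dry mean signal was 2.57. The highest was 89.9 in TRINITY_DN182074_c4_g1, which rested on 1 count in Dry replicate 1 and 0 in Dry replicate 2. Its ratio of counts, scaled by the median counts per signal of each library, was lower, at 36.4 with an exact 95% Poisson interval of 6.25 to 1460. By that ratio of counts TRINITY_DN173691_c7_g2 stood higher, at 43.4 with an interval of 7.5 to 1740, also on 1 count in Dry.

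The members do not stand apart from the genes below the range. The ratios of Rehydrated to Hydrated just outside the lower threshold were 0.247, 0.247 and 0.2496, and those just inside were 0.2504, 0.251 and 0.252. Another 14 genes lay between 0.2 and 0.25. At the upper end the 2 highest members were at 0.771 and 0.822, and the next gene, TRINITY_DN176748_c2_g2, was outside at 2.10. For the other thresholds, the Dry values just inside were 0.1239 and 0.1244 times the lowest earlier value and those just outside 0.1259 and 0.126. The Late ratios just inside were 0.508 and 1.997, and the sums of counts were 301 just inside and 297 just outside.

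**Figure D2:**
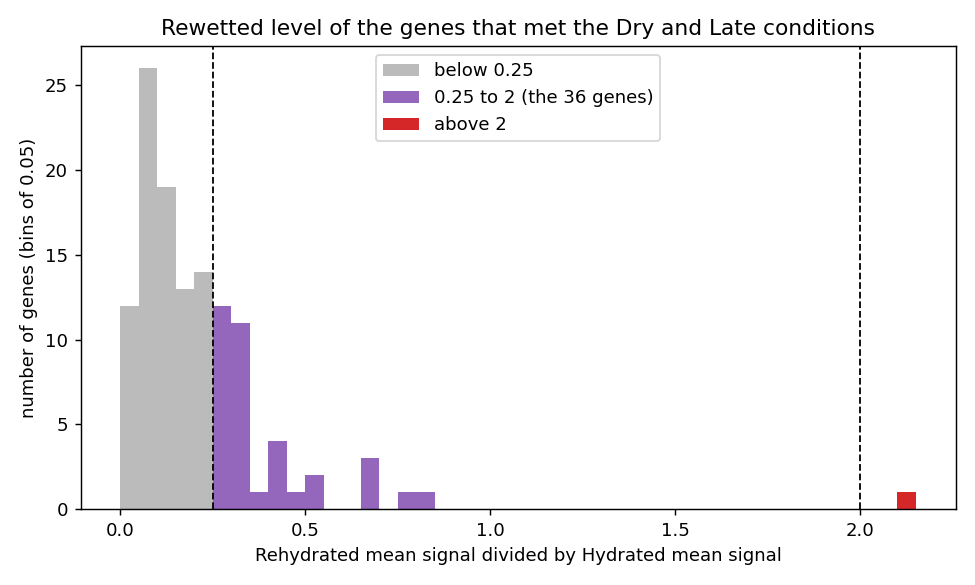
Number of genes by the ratio of Rehydrated to Hydrated mean signal, in bins of 0.05, for the 121 genes that met the conditions on Dry and Late; dashed lines mark the thresholds of 0.25 and 2. Of the 121 genes, 84 lie below the range, 36 inside it and 1 above it, and the members begin at 0.2504 with no gap from their neighbours at 0.2496.

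In 2 members the ratio of Rehydrated to Hydrated was the highest of the set. TRINITY_DN176337_c3_g7 had a signal of 116.5 and 52.8 in Hydrated, 105 and 137.5 in Early, 58.9 and 62.7 in Late, 5.51 and 4.55 in Dry, and 38.6 and 100.5 in Rehydrated. Its Rehydrated values overlapped its Hydrated values, and its Rehydrated mean was 82.2% of its Hydrated mean. TRINITY_DN173064_c0_g1 had 34.5 and 30.5 in Hydrated, 54.5 and 47.0 in Early, 30.7 and 30.3 in Late, 0.821 and 1.58 in Dry, and 19.9 and 30.1 in Rehydrated. Its Rehydrated mean was 77.1% of its Hydrated mean, and it was the 1 member whose exact 95% Poisson interval for the ratio of Rehydrated to Hydrated counts, 0.618 to 1.07, held 1. Each of the 2 genes had 1 library with a count that was not whole, as RSEM gives where reads map to more than 1 assembled sequence.

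The 2 members with the lowest ratio of Rehydrated to Hydrated sat on the threshold. TRINITY_DN167651_c0_g1 had a signal of 49.6 and 40.3 in Hydrated, 63.8 and 33.5 in Early, 55.1 and 46.9 in Late, 1.66 and 1.60 in Dry, and 10.3 and 12.2 in Rehydrated. Both Rehydrated values were far below the 6 earlier ones, on 10 and 9 counts. TRINITY_DN184770_c4_g1 had 25.6 and 20.8 in Hydrated, 20.4 and 30.2 in Early, 14.8 and 19.6 in Late, 0.639 and 1.12 in Dry, and 5.15 and 6.51 in Rehydrated. Its rewetted level was 25.1% of its Hydrated level on 7 and 12 counts, and its Poisson interval, 0.127 to 0.349, held the threshold of 0.25.

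Counting error alone leaves the membership of most of these genes unsettled. The summed counts of a member in the 2 Rehydrated libraries ran from 16 to 243 with a median of 36. The exact 95% Poisson interval of the ratio of Rehydrated to Hydrated held 0.25 in 26 of the 36 members and lay above it in 10. Among the 84 genes below the range, the interval held 0.25 in 23. These intervals cover counting error only and treat a gene's length as the same in every library.

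The 2 Rehydrated libraries gave different pictures. In 19 members both libraries lay at or above 0.25 times the Hydrated mean, in 15 only replicate 2 did, and in 2 only replicate 1 did. Replicate 2 was the higher in 25 of the 36 genes, with a median log2 ratio of replicate 2 to replicate 1 of 0.54. Over the 2870 genes with enough counts and signal in both libraries that median was 0.58, so the members followed the other genes in this. The widest gap was in TRINITY_DN156799_c0_g1, named here after its values were seen. Its signal was 98.1 and 75.4 in Hydrated, 97.7 and 149.5 in Early, 77.2 and 163 in Late, 8.65 and 6.27 in Dry, and 19.0 and 97.9 in Rehydrated. Replicate 1 was thus 21.9% of the Hydrated mean and replicate 2 above it, and TRINITY_DN176337_c3_g7 was the other member above its Hydrated mean in replicate 2. The median log2 ratio of Rehydrated to Hydrated over the set was -1.61 with both libraries, and it ran from -1.80 to -1.32 when any 1 of the 10 libraries was left out.

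**Figure D3:**
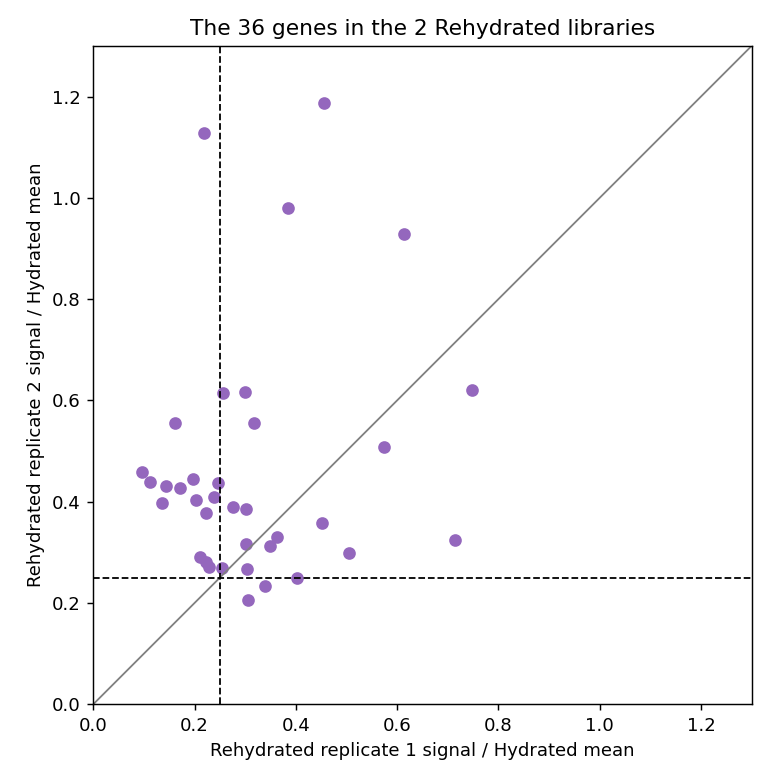
Signal of the 36 genes in Rehydrated replicate 1 (x axis) and replicate 2 (y axis), each divided by the gene's Hydrated mean; dashed lines mark 0.25 and the grey line marks equality. In 19 genes both libraries are at or above 0.25, and 25 points lie above the line of equality.

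The median signal of other genes differed between the libraries too, in a direction that depends on the genes counted. Over all 20783 genes it was 5.28 and 3.83 in the Rehydrated libraries, against 1.93 and 2.23 in Dry and 3.49 and 4.04 in Hydrated. Over the 2904 genes with enough counts it was 20.8 and 29.6 in Rehydrated, against 36.2 and 28.7 in Dry and 38.2 and 35.8 in Hydrated. In Rehydrated replicate 1, 29 of the 36 members lay above the median of all genes and in replicate 2, 34 did, against 9 and 11 in the Dry libraries. The Rehydrated mean of 26 members was more than 2 times the all-gene median of 4.60. The median member stood at percentile 91.7 of all genes in both Hydrated libraries, at 37.9 and 39.6 in Dry, and at 77.1 and 83.0 in Rehydrated. The part of these library-wide differences in the members' rewetted values was not tested.

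The rule sets no condition on Early against Hydrated, so this difference was tested. The test is not independent of the rule: all 4 columns are among the 6 whose lowest value had to stand clear of Dry, which leaves out genes that were low in either stage, and the Hydrated mean also scales the conditions on Late and Rehydrated. Among the 36 members, all of which passed the filter on low counts, 0 were called higher and 0 lower in Early, beside 2.33% and 2.73% of the 9856 genes tested by edgeR's quasi-likelihood test at an adjusted p under 0.05. DESeq2 and limma also called 0 in either direction. In simulated counts the edgeR fit recovered 3 of 50 genes changed 2-fold, in this comparison and in Late against Early. The changed genes were drawn from all genes tested, whose median sum of counts was 146 against 567 in the members. Recovery at the members' counts was not simulated. Calls of 0 therefore do not show that the members were steady. At an unadjusted p under 0.05, 3 members (8.33%) were higher and 0 lower, beside 9.22% and 11.0% of genes tested. The median log2 fold change of the members was 0.22, beside -0.07 over all genes tested and 0.22 over the 2904 genes with enough counts. Both Early libraries lay above both Hydrated libraries in 14 members (38.9%) and below in 4 (11.1%), beside 23.6% and 30.3% of genes tested and 37.4% and 24.8% of the 2904 genes. Scaled by library totals, the members had a median of -0.31 and that of all genes tested -0.59, so the sign of the median rests on the scaling.

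The largest positive log2 fold change of Early against Hydrated from edgeR was in TRINITY_DN173691_c7_g2 and did not pass. Its signal was 65.7 and 47.0 in Hydrated, 107 and 135 in Early, 105 and 120.1 in Late, 0.803 and 0 in Dry, and 20.5 and 18.6 in Rehydrated. Both Early libraries and both Late libraries lay above both Hydrated libraries, and the Rehydrated libraries lay close together. The log2 fold change of Early against Hydrated was 1.13 (SE 0.359, adjusted p = 0.0704), and adjusted p ran from 0.0304 to 0.739 over the alternatives. It passed in a fit of only the 2 stages (adjusted p = 0.0408), without Rehydrated replicate 1 (0.0405) and without Rehydrated replicate 2 (0.0304). Scaled by library totals, its log2 fold change was 0.58. The other 2 members with an unadjusted p under 0.05 were TRINITY_DN173064_c0_g1 and TRINITY_DN186665_c3_g1, with log2 fold changes of 0.82 (SE 0.323, adjusted p = 0.154) and 0.80 (SE 0.343, adjusted p = 0.192). In the signal TRINITY_DN186665_c3_g1 rose more than TRINITY_DN173691_c7_g2, with Early means of 2.31 and 2.14 times the Hydrated means. The counts per signal of TRINITY_DN186665_c3_g1 differed 1.996-fold between libraries.

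The lowest fold change was that of TRINITY_DN182074_c4_g1. Its signal was 98.6 and 49.2 in Hydrated, 29.1 and 43.5 in Early, 49.5 and 44.9 in Late, 0.547 and 0 in Dry, and 20.4 and 28.7 in Rehydrated. Both Early values lay below both Hydrated values, and 1 Hydrated library was 2 times as high as the other. The log2 fold change was -0.49 (SE 0.351, adjusted p = 0.458), and it was -0.04 without Hydrated replicate 1 and -1.02 with library totals. The log2 ratio of the mean signals was -1.03, and the gene's counts per signal differed 1.75-fold between libraries.

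Late against Early is likewise a difference on which the rule sets no condition, but from columns it used. The Late mean was held within a 2-fold range of Hydrated, which limits how far a member could fall or rise by Late. Of the 36 members, 0 were called higher and 0 lower, beside 0.294% and 1.15% of genes tested, and DESeq2 and limma also called 0. At an unadjusted p under 0.05, 0 were higher and 3 (8.33%) lower, beside 4.57% and 6.0% of genes tested. The median log2 fold change of the members was -0.12, beside 0.00 over all genes tested. Both Early libraries lay above both Late libraries in 13 members (36.1%) and below in 4 (11.1%), beside 21.6% and 18.6% of genes tested and 26.0% and 21.5% of the 2904 genes. The highest stage mean was in Early in 20 members, in Late in 9 and in Hydrated in 7. The rule kept Dry low and limited Late and Rehydrated against Hydrated, but set no upper limit on Early. The same count over all genes was not made, so these numbers do not show a peak in Early particular to the set.

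The largest difference downward was in TRINITY_DN186118_c0_g1. Its signal was 60.4 and 57.0 in Hydrated, 53.2 and 79.9 in Early, 42.1 and 17.6 in Late, 0 and 2.19 in Dry, and 22.6 and 57.5 in Rehydrated. Its 2 Late values were the lowest of the 6 before dryness, and its Rehydrated values overlapped both its Late and its Hydrated values. The log2 fold change of Late against Early was -1.16 (SE 0.453, adjusted p = 0.321), and it was -0.66 without Late replicate 2 and -1.96 without Late replicate 1. The largest upward log2 fold change from edgeR was in TRINITY_DN186336_c1_g2. Its signal was 17.5 and 18.7 in Hydrated, 18.3 and 15.4 in Early, 26.5 and 20.1 in Late, 1.46 and 0.414 in Dry, and 6.31 and 5.66 in Rehydrated. Both Late values lay above the 4 earlier ones, with a log2 fold change against Early of 0.60 (SE 0.343, adjusted p = 0.579); it was 0.38 with library totals, and 0.29 without Early replicate 2. The other 2 members with an unadjusted p under 0.05 were TRINITY_DN176337_c3_g7 and TRINITY_DN173064_c0_g1, with log2 fold changes of -0.96 (SE 0.431, adjusted p = 0.428) and -0.80 (SE 0.333, adjusted p = 0.375).

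**Figure D4:**
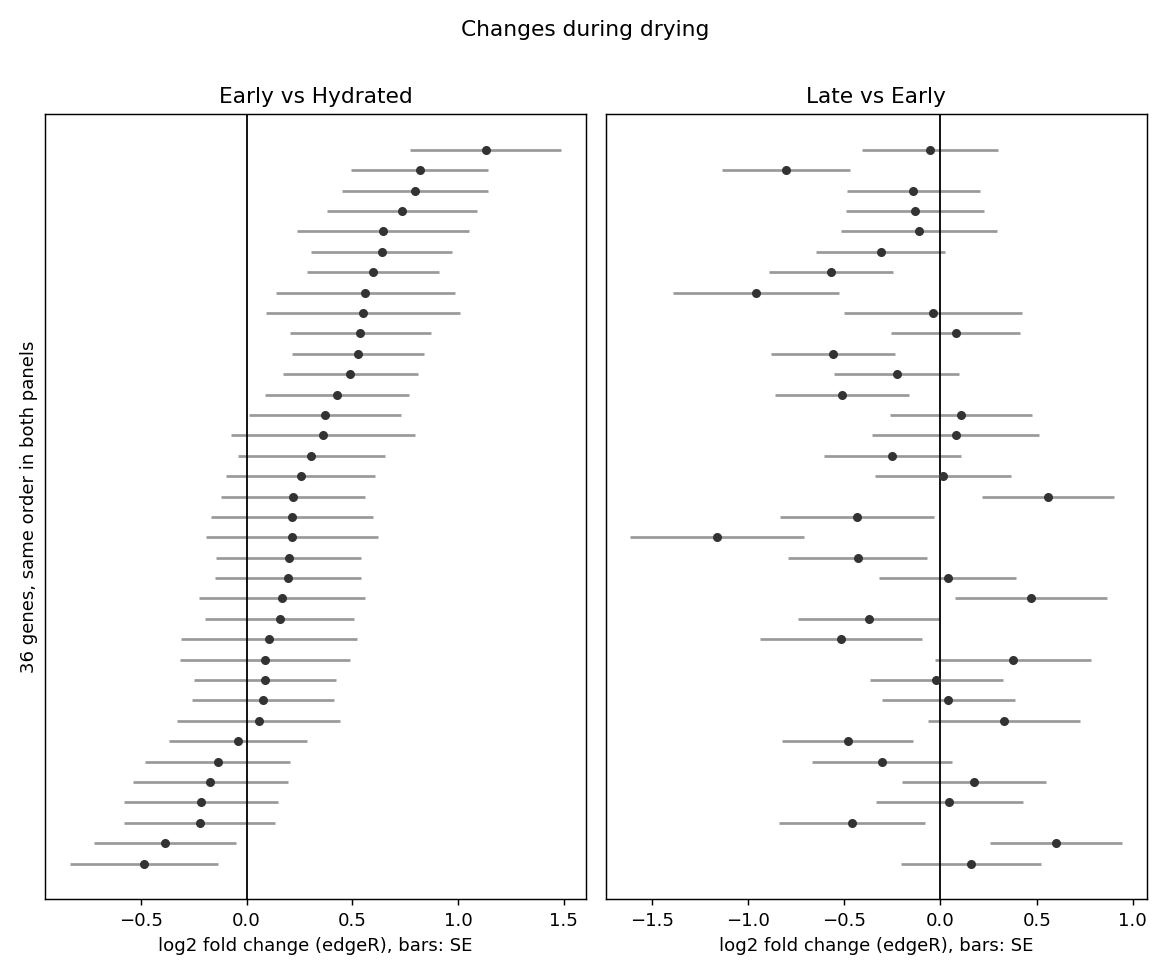
Log2 fold changes of the 36 genes for Early against Hydrated and Late against Early from edgeR (points) with their standard errors (bars), genes in the same order in both panels. The points run from -0.49 to 1.13 in the first panel and from -1.16 to 0.60 in the second, and no gene passed the test in either.

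Between Late and Hydrated the rule allowed at most a 2-fold difference of means, and within that range the members lay on both sides. The Late mean was above the Hydrated mean in 21 genes, the ratio had a median of 1.08, and the extremes were 0.508 in TRINITY_DN186118_c0_g1 and 1.997 in TRINITY_DN173691_c7_g2. Without Late replicate 2 the median log2 ratio was -0.02 in place of 0.11, and with library totals it was -0.61. Against Late, the Rehydrated mean was higher in TRINITY_DN186118_c0_g1 and TRINITY_DN176337_c3_g7, at 1.34 and 1.14 times, and lower in the other members, down to 0.152 times. Both Late libraries lay above both Rehydrated libraries in 33 members, beside 35.1% of genes tested.

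**Figure D5:**
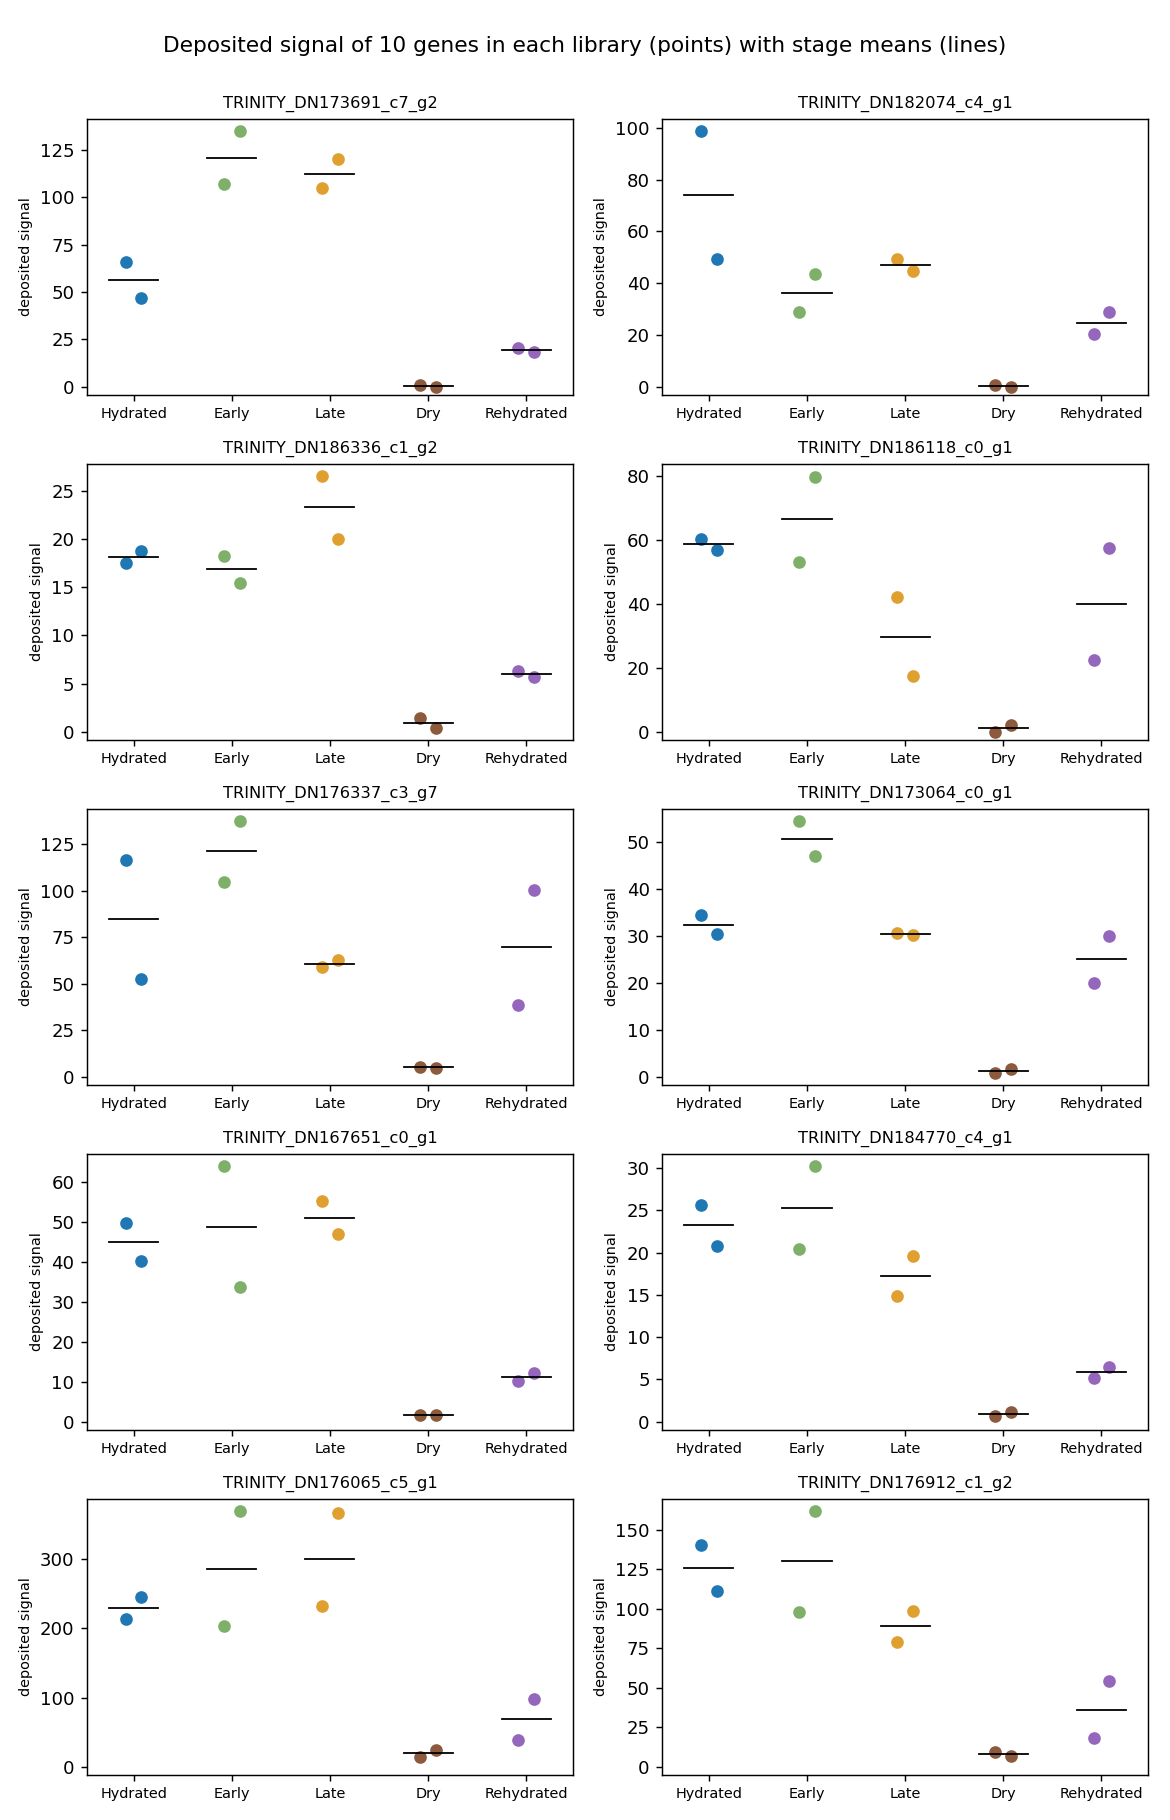
Deposited signal of 10 members in each library (points) and the mean of each stage (lines), on a linear axis; the panels hold the genes named for their level, their rewetted ratio or their fold change during drying. In each panel the 2 Dry points are the lowest, and in TRINITY_DN176065_c5_g1, TRINITY_DN176337_c3_g7, TRINITY_DN186118_c0_g1 and TRINITY_DN176912_c1_g2 the 2 Rehydrated points lie over 2-fold apart.

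The 84 genes that met the same conditions on Dry and Late but stayed below the rewetted range were set beside the members. The rule parts them from the members by the ratio of Rehydrated to Hydrated mean. It thereby favours a higher Hydrated and a lower Rehydrated level among the 84, and Early against Hydrated shares the Hydrated values. Their Hydrated level was higher, with a median signal of 66.9 against 33.4, and their Dry level was a similar share of it, with a median ratio of 0.0339 against 0.0374. In the Rehydrated libraries their median signal was 6.21 and 7.64, against 10.1 and 14.8 for the members and 5.28 and 3.83 over all genes. In Early against Hydrated their median log2 fold change was 0.51 against 0.22, and in Late against Early it was -0.24 against -0.12. In Early against Hydrated 2 of them (2.38%) were called higher and 0 lower, beside 2.33% and 2.73% of genes tested. In Late against Early 0 were called higher and 1 (1.19%) lower, beside 0.294% and 1.15%. The shares called at an adjusted p under 0.05 were thus near those over all genes tested, but those at an unadjusted p under 0.05 were not. In Early against Hydrated 25.0% of the 84 were higher by that unadjusted edgeR test and 0 lower, beside 9.22% and 11.0% of genes tested. In Late against Early 0 were higher and 15.5% lower, beside 4.57% and 6.0%. Both Early libraries lay above both Hydrated libraries in 58.3% of them, against 38.9% of the members, 23.6% of genes tested and 37.4% of the 2904 genes. Genes are not replicates and no test was made of these differences.

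Length, whole counts and assembly cluster were features that the rule did not use. The relative length of a gene, taken as its counts divided by its signal and set to 1 at the median of the 2904 genes, had a median of 1.19 in the members and ran from 0.344 to 2.24. Counts were whole in every library in 33 members, and the 3 others, TRINITY_DN176337_c3_g7, TRINITY_DN173064_c0_g1 and TRINITY_DN167651_c0_g1, had 1 library each with a count that was not whole. The 36 identifiers carried 36 different numbers after DN, so no 2 members came from the same assembly cluster. Another assembled gene carried the number of a member in 20 members, and 5 such other genes had enough counts. Of these 5, 1 met the condition on Dry and 1 was higher in Dry than in Hydrated. Their median ratio of Dry to Hydrated was 0.182. The member TRINITY_DN172761_c2_g1 shared its number with a gene below the rewetted range.

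For 8 members the signal does not follow the counts evenly, since their counts per signal differed by more than 1.5-fold between libraries once depth was taken out. In TRINITY_DN175341_c2_g1, where this range was the widest at 2.04-fold, 87 and 74 counts in Hydrated gave a signal of 15.1 and 28.6. In TRINITY_DN186158_c4_g2, named here after its values were seen, the ratio of Rehydrated to Hydrated was 0.541 in the signal and 0.313 in the counts. In counts summed over a stage's libraries and scaled by the median counts per signal of each library, 7 of the 36 members had a ratio below 0.25. Not all of these had uneven counts per signal. In TRINITY_DN167651_c0_g1 this ratio was 0.247, although its counts per signal differed only 1.04-fold between libraries. Summed counts also weigh the libraries differently from a mean of signals.

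Which genes belong to the set depends on how it is drawn. Of the 36 members, 17 met the rule under the deposited signal and under 3 other scalings, and 12 met it whichever 1 library was left out. With library totals in place of the deposited signal the rule gave 102 genes, 27 of them among the 36, and with TMM factors from the counts it gave 27 genes, 21 of them among the 36. When each Rehydrated library had to lie in the range, 19 genes remained. Without Dry replicate 1 or Dry replicate 2, which leaves only 1 Dry value to meet the condition, there were 86 and 72 genes, each list with all 36 members in it.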

How the data were processed

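Raw expected counts per gene and a TMM-scaled, length-corrected signal for the same genes are as the authors deposited them; the sources used here do not tell which length-corrected unit preceded TMM. The tools named, per the submitters' processing notes, are RSEM 1.2.28, Bowtie2 2.2, Trimmomatic 0.35, CASAVA 1.4 and DESeq2, with no order given. Columns were matched to samples by number and time code. Members were found by the rule in the deposited signal.

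Expected counts were rounded, filtered with edgeR's filterByExpr (minimum count 10), which left 9856 genes with 98.3% of counts, scaled with TMM factors and fitted with edgeR 4.0.16 (R 4.3.3) by the quasi-likelihood test with a term per stage over all 10 libraries. P-values were adjusted by Benjamini-Hochberg over all genes tested. DESeq2 1.42.0 and limma 3.58.1 were alternatives, limma on log2 of signal plus 0.1 or 1. The fit was tested on simulated counts with the common dispersion, in which genes drawn from all genes tested were changed. Of 50 genes changed 2-fold, 3 were recovered in each comparison. Of 50 changed 4-fold, 24 were recovered in Early against Hydrated and 22 in Late against Early. Recovery among genes with the members' counts was not simulated apart. Common dispersion gave a biological coefficient of variation of 28.6%. Poisson intervals (exact, 95%) used counts scaled by the median counts per signal of each library, and a count of 0 was bounded with 3 counts per library, which is between 1.56 and 4.65 CPM of the library total.

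The members and lists were chosen with earlier results of these data known. The genes named are, for each tested comparison, up to 2 with the largest change each way among those passing, or the 1 with the largest difference where none passed; for Rehydrated against Hydrated, the 2 with the highest and lowest ratios; and the 2 most abundant in Hydrated. Other names are said to be chosen after their values were seen.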

Additional observations from a re-analysis of the deposited data

How the results depend on the processing

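The number of genes that met the rule was 102 with library totals, 27 with TMM factors from the counts and 28 with DESeq2 size factors in place of the deposited signal. It was 112 with a sum of at least 100 counts and 6 with at least 1000, 120 and 14 with Dry at most 0.25 and 0.0625 times the lowest earlier value, 64 with the mean of the Dry columns, and 19 with each Rehydrated column in range; leaving out 1 library gave between 26 and 86. Members called higher in Early against Hydrated numbered 1 in place of 0 in a fit of only the 2 stages and between 0 and 1 with 1 library left out; the other counts of calls were 0 under every alternative run. The median log2 ratio of Dry to Hydrated was -5.91 with library totals, -4.15 with TMM factors from the counts and -4.07 with DESeq2 size factors, and ran from -4.86 to -4.35 with 1 library left out. That of Rehydrated to Dry was 4.68 with library totals and ran from 2.93 to 3.52 with 1 library left out, and that of Late to Hydrated was -0.61 with library totals and ran from -0.017 (without Late replicate 2) to 0.19 with 1 library left out. The scaled counts put in place of the deposited signal carry no length correction, so genes need not move together. With TMM factors from the counts, the median log2 ratio of Dry to Hydrated went from -4.74 to -4.15 over the members. Over the tested genes with signal in both stages it went from -0.832 to -0.405. Fewer Dry columns make the Dry condition easier to meet. The cause of the other differences was not tested. The samples share only a replicate number: replicate differences correlated between -0.0815 and 0.149 over 10 pairs of stages, 2 of them over 0.1. A fit with the replicate number as a block (pairing) called 0 members in either comparison, and 316 higher and 329 lower genes in Early against Hydrated, beside 230 and 269 without it. Depth limits the Dry values, at a median of 3 counts per member, and the Rehydrated values, at 36.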
